A study of Mus musculus with 69 samples.

Results

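Genes of 6 solute carrier families that move amino acids across membranes (Slc1, Slc3, Slc7, Slc36, Slc38 and Slc43) were followed in cultured mouse type 1 regulatory T (Tr1) cells across 16 knockout comparisons. Members were all genes in the deposited tables whose symbol names one of these families, which gave 42 of 23366 genes: 7 of Slc1, 2 of Slc3, 15 of Slc7, 4 of Slc36, 11 of Slc38 and 3 of Slc43. Of these, 36 had a count in at least 1 of the 63 libraries used, and 6 (Slc1a6, Slc7a9, Slc7a12, Slc36a2, Slc38a5 and Slc38a11) had 0 counts in every one. Tr1 cells are CD4 T cells that secrete IL-10 and restrain other immune cells, and the study removed transcription factors from them 1 or 2 at a time.

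A T cell that leaves its resting state takes up much more leucine, glutamine, arginine and cystine to build protein and to keep the growth kinase complex mTORC1 active. Slc7 light chains such as Slc7a5 (LAT1, leucine and other large neutral amino acids) and Slc7a11 (xCT, cystine against glutamate) reach the surface only as heterodimers with a heavy chain, Slc3a2 (CD98). Slc1a5 (ASCT2) and the sodium-coupled Slc38a1 and Slc38a2 carry glutamine and other small neutral amino acids, Slc7a1 and Slc7a3 carry arginine and lysine, and Slc38a9 senses arginine at the lysosome. When amino acids run short, the factor ATF4 acts on amino acid response elements in the promoters of several of these genes.

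All groups started from naive CD4 T cells, kept for 72 h in anti-CD3 (1 ug/ml) plus IL-27 (25 ng/ml). The labels name anti-CD8 (1 ug/ml) as well, and 2000 cells were lysed per library. By the labels, CD4 Cre(+/-) deleted floxed (f/f) Prdm1, Maf, both Prdm1 and Maf, Fosl2, Hif1a, Nfil3 or Stat3, Actin Cre(+/-) deleted Atf3 f/f and dLck Cre(+/-) deleted Irf8 f/f. Ahr, Batf, Ets1, Irf1, Irf4, Irf9 and Tbx21 are labelled as knockouts. Controls were Cre- for Prdm1 and Maf, f/f with no Cre named for Atf3, Fosl2, Hif1a and Nfil3, and WT for the rest. CD4 Cre acts from the thymus on and dLck Cre later in T cells, whereas Actin Cre and the knockouts remove the gene in other cells too. The Irf9 experiment used BALB/c cells and all others C57BL/6 cells. Prdm1, Maf and double knockouts shared 3 control libraries, and Batf, Irf1, Irf8 and Stat3 shared 4 control libraries over 3 batches, so comparisons within each of these sets are not independent. Whether replicates are separate mice or cultures is not stated, so p-values reflect library-to-library spread, which may be technical.

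Depth ran from 743445 to 15221850 counts per library, so that 3 counts stood for 0.197 to 4.04 CPM (a gene's counts scaled to a common library total). The 10 CD4 T cell markers had counts in all 63 libraries, but some changed at an adjusted p under 0.05 in the edgeR test described below. In the Ets1 knockout 3 were higher and 5 lower, in the double knockout 1 and 4, in Irf4 1 and 3, and in Maf 2 and 1. In the Prdm1 and Tbx21 knockouts 3 were lower in each, in Batf and Irf9 1 was lower in each, and in Atf3 2 were higher. Of 15 myeloid and dendritic cell markers, Lyz2, Fcgr1, S100a8, S100a9 and Siglech were at 0 in all of them, while Cd68 had counts in every one (up to 25.4 CPM) and Itgam was at 0 in 10; the list summed to 2.87 to 30.6 CPM. Of 11 erythroid and platelet markers, Hba-a2, Pf4, Ppbp and Gp9 were at 0 throughout, and Itga2b, the highest, reached 4.49 CPM. Ribosomal Rn45s took 34.0% to 40.9% of counts in the 3 Fosl2 libraries and 43.7% in Irf8_KO 1, against at most 10.5% elsewhere. The targeted gene was lower in the Prdm1, Maf, Batf, Stat3, Tbx21 and Irf4 knockouts. It did not pass the threshold for Irf1, Irf8, Ahr, Ets1, Fosl2, Hif1a, Irf9 or Nfil3. The libraries labelled Nfil3 knockout 1 and 2 had 211 and 3.08 CPM of Nfil3 against 252 to 277 CPM in controls, so the first kept most of the transcript. Atf3 was higher, by 1.94 ± 0.19 on the log2 scale, in the libraries labelled Atf3 knockout. Knockout names below follow the labels.

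Promoter windows of 4 members are shown because the results below turn on them (Slc3a2 and Slc38a2) or because they hold the ATF4-type element (Slc1a4 and Slc7a11). RefSeq windows on GRCm38.p6, from 250 bases before to 50 after a transcript start, matched 31 of the 42 members. Capitals mark any match, on either strand, to the amino acid response element core TGATGNAA, the E-box CACGTG (a Myc-type site), the AP-1 site TGANTCA or the dioxin response element core GCGTG, and the sequences run 5′ to 3′ on the gene's strand.
Slc3a2, chr19:8713848-8714147, minus strand: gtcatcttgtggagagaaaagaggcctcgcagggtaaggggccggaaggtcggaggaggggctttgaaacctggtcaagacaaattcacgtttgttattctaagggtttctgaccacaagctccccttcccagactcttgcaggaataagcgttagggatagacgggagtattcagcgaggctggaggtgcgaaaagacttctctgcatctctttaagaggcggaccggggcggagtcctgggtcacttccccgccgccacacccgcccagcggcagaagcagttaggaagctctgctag
Slc38a2, chr15:96699679-96699978, minus strand: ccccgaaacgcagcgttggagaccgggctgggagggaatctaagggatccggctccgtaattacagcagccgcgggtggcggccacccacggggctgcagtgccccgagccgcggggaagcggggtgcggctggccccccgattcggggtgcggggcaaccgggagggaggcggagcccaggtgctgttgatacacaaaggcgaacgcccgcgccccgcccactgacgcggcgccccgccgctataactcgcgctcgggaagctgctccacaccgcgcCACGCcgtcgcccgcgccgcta
Slc1a4, chr11:20332664-20332963, minus strand: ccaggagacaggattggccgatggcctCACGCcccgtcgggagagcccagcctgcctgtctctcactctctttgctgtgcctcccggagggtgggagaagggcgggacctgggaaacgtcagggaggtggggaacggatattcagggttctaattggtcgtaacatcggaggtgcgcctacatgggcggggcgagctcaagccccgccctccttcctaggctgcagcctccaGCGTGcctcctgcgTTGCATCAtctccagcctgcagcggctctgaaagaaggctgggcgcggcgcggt
Slc7a11, chr3:50443564-50443863, minus strand: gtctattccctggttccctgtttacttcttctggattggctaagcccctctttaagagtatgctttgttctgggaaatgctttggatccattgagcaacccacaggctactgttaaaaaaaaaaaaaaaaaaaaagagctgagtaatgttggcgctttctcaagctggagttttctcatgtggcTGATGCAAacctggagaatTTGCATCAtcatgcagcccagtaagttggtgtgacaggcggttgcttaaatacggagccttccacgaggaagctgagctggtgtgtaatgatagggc

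Slc7a11 held a pair of TGATGNAA matches on opposite strands, with first bases 66 and 47 bases before the start, and Slc1a4 held 1 that began 4 bases before it. That core was present for 3 of the 31 members (Slc1a4, Slc7a7 and Slc7a11) and in 3.97% of all 32851 windows. The E-box was present for 7 of 31 members against 7.15% of windows, the AP-1 site for 4 against 7.81%, and GCGTG for 12 against 32.4%. The 31 members had 42 windows, and a match in any window counted for the member. The percentages are per window, so members had more room for a match and the shares are not like for like. Slc3a2, encoding the CD98 heavy chain, held none of the 4 sequences in its window, and Slc38a2 held only a GCGTG that began 29 bases after the start. Such matches describe letters in a window and not a bound site.

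In control cells the CD98 heavy chain gene Slc3a2, the leucine carrier Slc7a5 and the glutamine carrier Slc1a5 held most of the summed level. Levels per length, in TPM (transcripts scaled for length and library total), were averaged over the control libraries of each experiment and then over the 11 experiments. Of the 42 members, 23 reached 1 TPM, 15 reached 5 TPM and 5 reached 50 TPM, and the summed level was 787 TPM ± 172 (SD, n = 11). Slc3a2 at 162 ± 36.5, Slc7a5 at 157 ± 77.3 and Slc1a5 at 134 ± 85.0 together held 57.6% of it. Their ranges over experiments overlapped and their order changed between experiments. Differences between them within experiments were not tested. Slc38a1 at 52.1 ± 20.1, Slc38a2 at 51.8 ± 19.0, Slc38a10 at 48.7 ± 14.2 and Slc7a1 at 44.8 ± 19.4 formed the next group. Their ranges likewise overlapped and their order changed between experiments. Slc7a6, the light chain of a neutral and cationic exchanger, had 36.3 ± 31.1 and Slc43a3, a carrier best known for purine bases, 24.1 ± 5.59. Slc7a3 at 13.5 ± 5.54, Slc43a2 (LAT4) at 11.4 ± 5.90, Slc1a4 (ASCT1, alanine and serine) at 10.4 ± 3.11 and Slc7a11 at 7.49 ± 2.38 were lower. By family, Slc7 held a mean of 33.2%, Slc3 21.8%, Slc38 20.9%, Slc1 17.9%, Slc43 4.89% and Slc36 1.302% of the summed level. Slc3a1, the other heavy chain, had a mean of 0.0118 TPM, and its partner light chain Slc7a9 was at 0 counts.

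**Figure D1:**
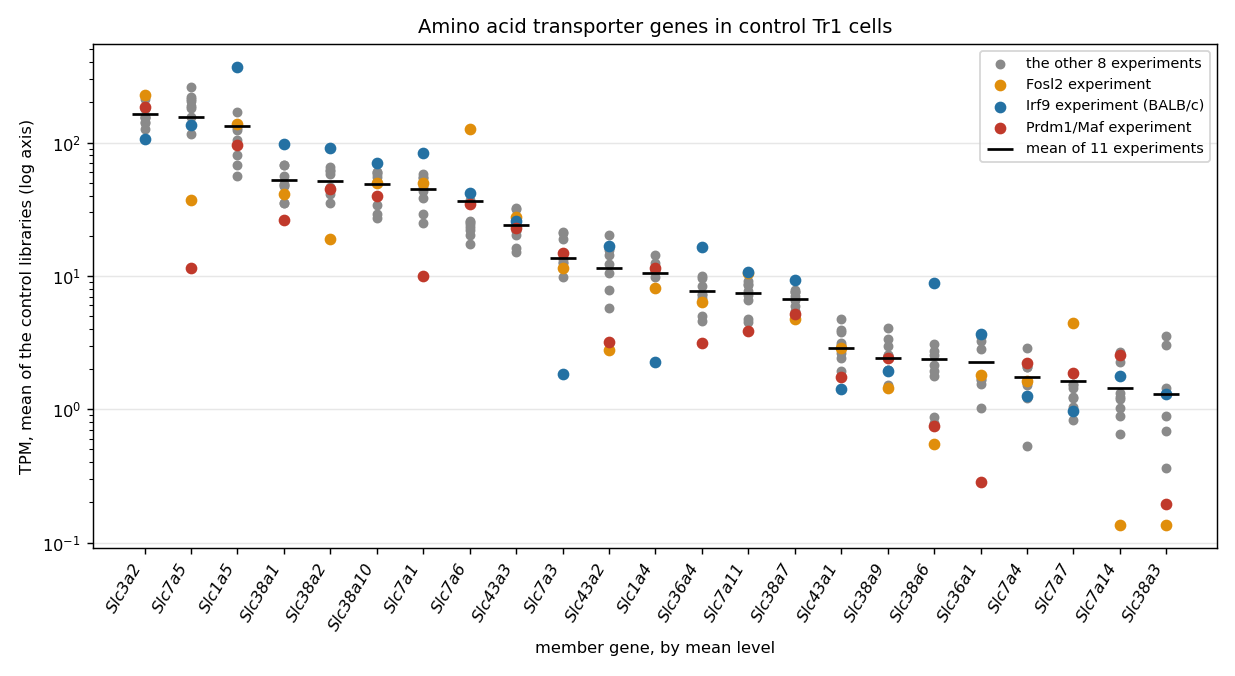
Mean control TPM (log axis) of the 23 members at or above 1 TPM, 1 point per experiment, with a bar for the mean of 11 experiments. Slc7a5 spans 11.4 to 262 TPM, with its lowest points in the Prdm1/Maf and Fosl2 experiments, while Slc3a2 spans 106 to 229 TPM.

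Levels of several members differed between experiments. Slc7a5 had 23.6 to 34.7 CPM in all 11 libraries of the Prdm1/Maf experiment and 54.5 to 62.2 CPM in the 3 Fosl2 libraries. In the other 49 libraries it had 224 to 529 CPM, so these sets do not overlap. Its partner Slc3a2 was not low there, with control levels of 186 TPM in the Prdm1/Maf and 229 TPM in the Fosl2 experiment. The control ratio of Slc7a5 to Slc3a2 was 0.0616 and 0.162 in these 2 experiments and 0.825 to 1.72 in the other 9. Slc7a1 also ran low in the Prdm1/Maf experiment, at 45.7 to 74.6 CPM over its 11 libraries against 65.6 to 387 CPM over the other 52. The overlap at the edges came from Irf8_KO 1, which was rich in Rn45s. With Rn45s left out of the totals, Slc7a1 had 46.4 to 75.6 CPM there and at least 100 CPM elsewhere. On that scale Slc7a5 had 23.9 to 35.3 CPM in Prdm1/Maf, 82.5 to 103 CPM in Fosl2 and at least 234 CPM elsewhere. The part of depth, Rn45s or handling in these differences was not tested, and how many of all genes differ so between experiments was not counted. Slc7a6 ran high in the Fosl2 experiment, at 192 to 220 CPM in 3 libraries against at most 105 CPM in the other 60.

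BALB/c cells of the Irf9 experiment stood apart in 3 further members. Slc1a5 had 475 to 566 CPM in their 7 libraries and 80.6 to 396 CPM in the 56 C57BL/6 libraries. Slc7a3 had 0 to 5.02 CPM there and 8.98 to 110 CPM elsewhere, and Slc1a4 had 3.77 to 8.05 CPM there and 10.6 to 43.6 CPM elsewhere. All 3 sets were separate, with Slc1a5 high and both others low in BALB/c cells. The share of all genes that separate these libraries in the same way was not counted. Strain and experiment cannot be told apart in these libraries. In bulk RNA, fewer cells with a transcript and less of it per cell cannot be told apart either, here and below.

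Changes below are log2 fold changes, knockout against control, ± the standard error of the fit, from edgeR's quasi-likelihood test with Benjamini-Hochberg adjustment over all genes tested. A member was called at an adjusted p under 0.05. Where groups are said below not to overlap, the share of all genes without overlap was not counted. Of the 42 members, 28 had enough counts to be tested in at least 1 comparison, 15 were tested in every one, and 14 in none. The 16 comparisons gave 359 member tests and 28 calls (15 up and 13 down) in 16 members. By comparison, the share of tested members called ran from 0% to 31.8%, beside 0.0207% to 28% of all genes tested. Slc38a2 was called in 5 comparisons, and Slc1a5, Slc7a14 and Slc43a3 in 3 each. Another 12 members were tested and never called, among them Slc7a6, Slc7a11, Slc38a7, Slc36a1 and Slc36a4, and Slc43a1.

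**Figure D2:**
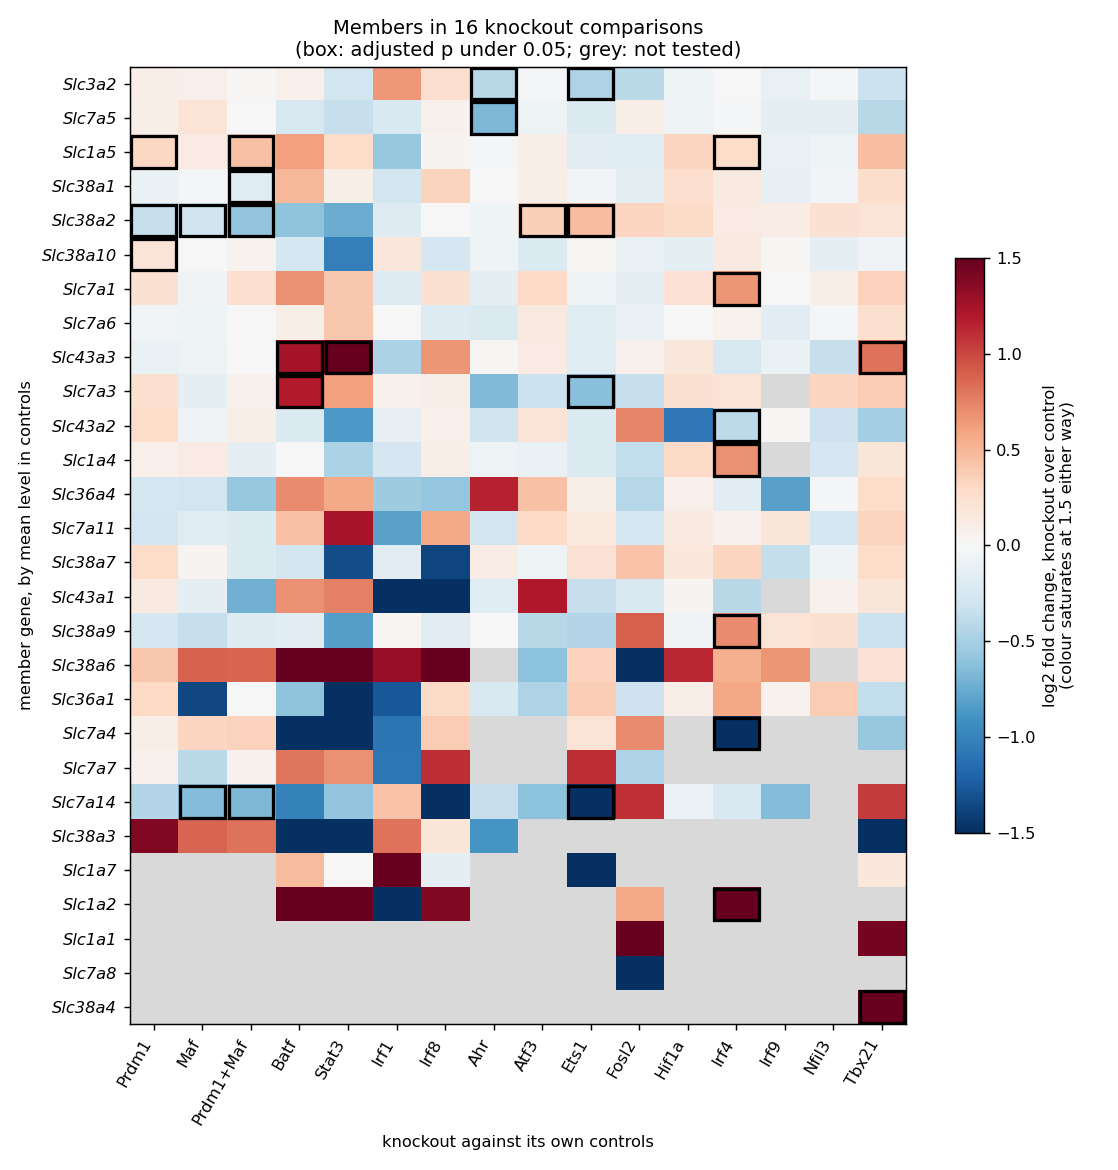
Log2 fold change, knockout over control, of the 28 tested members (rows, by mean control level) in 16 comparisons (columns). Boxes mark the 28 calls, grey marks untested cells, and colour saturates at 1.5; the low-level members in the lower rows have wide errors and few calls.

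Ahr, the aryl hydrocarbon receptor, is a ligand-activated factor, and in its knockout both chains of the leucine transporter were lower. Slc7a5 had 267 and 283 CPM in the knockout and 417 and 460 CPM in the control libraries. Slc3a2 had 236 and 227 CPM in the knockout and 298 and 324 CPM in the controls. In neither gene did the groups overlap. Slc7a5 fell by 0.67 ± 0.10 (adjusted p = 1.94e-05) and Slc3a2 fell by 0.42 ± 0.10 (0.0458), 2 of 20 members tested, where 0.381% of all 9979 genes tested were called. No other member was called, and the median over the tested members was -0.16 beside 0.01 over all genes. Other light chains gave values short of the threshold, -0.22 for Slc7a6 and -0.27 for Slc7a11, and the arginine carrier Slc7a1 gave -0.15. For Slc7a5 the log2 value ran from -0.73 to -0.62 over 9 alternatives, and the call was lost in 1, without control library 2 (adjusted p = 0.0605). For Slc3a2 the call was lost in 6 of 9, among them DESeq2's own test (0.529) and the fits without control library 1 (0.442), control library 2 (0.87) and knockout library 2 (0.231). None of the 24 tested genes of the amino acid response list and none of the 20 aminoacyl-tRNA synthetases was called, and the Ahr transcript was not lower in the knockout libraries (0.87 ± 0.33, adjusted p = 0.529). The 10 B cell markers, none of which had enough counts to be tested, summed to 6.35 and 7.59 CPM in the knockout and to 8.85 and 21.4 CPM in the controls.

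**Figure D3:**
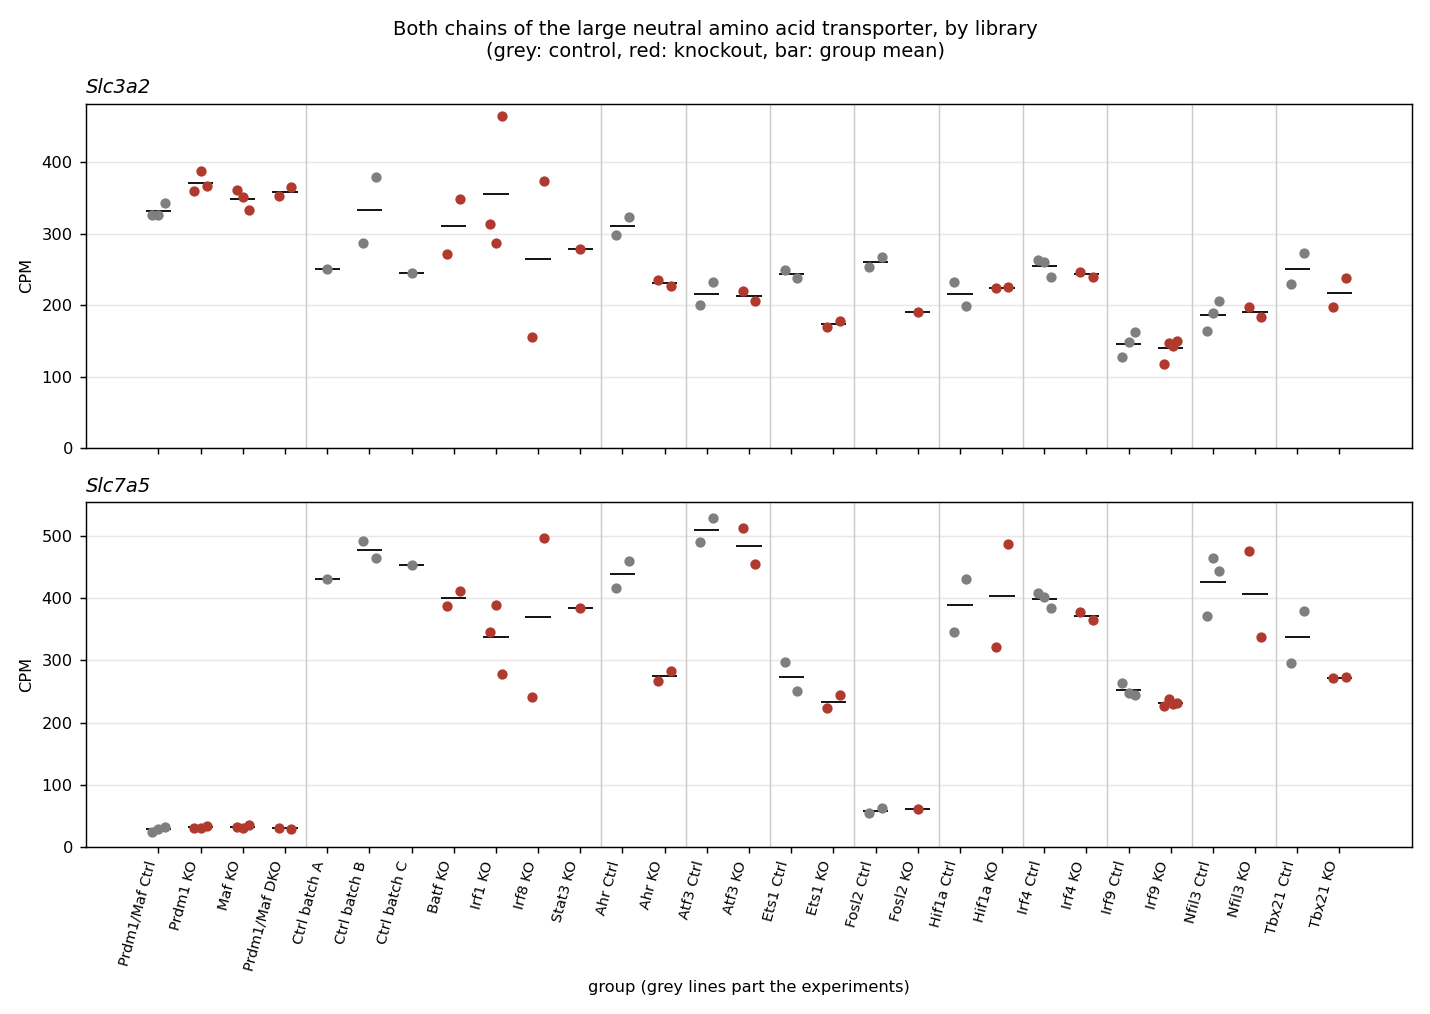
CPM of Slc3a2 (top) and Slc7a5 (bottom) in every library by group, with group means as bars. Both Ahr knockout libraries lie under both of their controls in each gene, and Slc7a5 lies at 23.6 to 34.7 CPM throughout the Prdm1/Maf experiment; Irf8 KO has 1 library with 43.7% Rn45s.

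Ets1 is an ETS factor of resting lymphocytes, and in its knockout 4 of 23 tested members were called. That is 17.4% of them, under the 20.4% called among all genes tested. Slc3a2 had 170 and 177 CPM in the knockout against 248 and 237 CPM in the controls. It fell by 0.46 ± 0.08 (adjusted p = 0.00243), while its partner Slc7a5 gave -0.20 ± 0.09 (0.15). Slc38a2 had 140 and 155 CPM against 115 and 104 CPM and rose by 0.46 ± 0.09 (0.00592). The arginine carrier Slc7a3 had 13.2 and 13.7 CPM against 21.1 and 21.4 CPM and fell by 0.63 ± 0.18 (0.0307). Slc7a14, a relative of the cationic carriers found at lysosomes, had 2.15 and 2.66 CPM against 9.35 and 4.92 CPM and fell by 1.52 ± 0.41 (0.0231). All 4 separated the groups of 2 against 2 libraries, but the share of all genes that do so was not counted. The last 2 were lost under DESeq2 (0.223 and 0.104) and without single libraries: Slc7a3 without knockout library 1 (0.142) or 2 (0.087) or control library 2 (0.0567), and Slc7a14 without knockout library 1 (0.0833) or control library 1 (0.205). Slc38a2 was lost without knockout library 2 (0.064). Among 24 tested genes of the amino acid response list, 1 rose and 7 fell, among them Stc2 (-0.71 ± 0.15), the cystathionine lyase gene Cth (-0.70 ± 0.13) and Pck2 (-0.68 ± 0.10), and their median was -0.20. Odc1 and Sms, genes of polyamine synthesis, fell by 0.78 ± 0.07 and 0.93 ± 0.12, and Mat2a, which makes the methyl donor from methionine, rose by 1.22 ± 0.14. Myc rose by 0.44 ± 0.08. Of the CD8 T and NK cell markers 3 were called higher and 1 lower, their sum being 36.3 and 41.3 CPM against 26.1 and 34.8 CPM. Of 2 myeloid markers tested 1 was called lower, the list's sum being 8.11 and 9.88 CPM against 17.4 and 18.6 CPM. The part of these markers was not tested. The Ets1 transcript gave 0.20 ± 0.07 (0.0517).

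Slc38a2 (SNAT2), which brings in glutamine and alanine with sodium and is a classic gene of amino acid shortage, was called more often than any other member and in both directions. Control libraries of the Prdm1/Maf experiment had 146, 144 and 150 CPM. Prdm1 knockout libraries had 113, 113 and 137 CPM, Maf knockout libraries 122, 106 and 127 CPM, and double knockout libraries 119 and 88.0 CPM. Every knockout library lay under every control. Slc38a2 fell by 0.34 ± 0.08 without Prdm1 (adjusted p = 0.0123), by 0.30 ± 0.09 without Maf (0.029) and by 0.59 ± 0.10 without both (0.00018). The interaction of both deletions was 0.05 ± 0.13 (0.925), with a 95% interval of -0.22 to 0.32. The Prdm1 call was lost without Prdm1 knockout library 2 (0.0553). The Maf call was lost without each control library (0.0632 to 0.0819) and without Maf knockout library 1 (0.063) or 2 (0.174).

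In the Ets1 and Atf3 experiments Slc38a2 was higher in the knockout-labelled libraries. Libraries labelled Atf3 knockout had 217 and 216 CPM and their controls 169 and 169 CPM, and these did not overlap. It rose by 0.36 ± 0.11 (adjusted p = 0.0294), the only call among 20 members tested, where 8.19% of all genes were called. That call was lost without any 1 of the 4 libraries (0.0795 to 0.187) and under DESeq2 (0.356). In the same libraries 6 of 10 B cell markers were called higher, their sum being 83.4 and 83.8 CPM against 11.2 and 16.01 CPM, and 1 was called lower. Of 10 CD8 T and NK cell markers 2 were called lower, their sum being 28.9 and 29.2 CPM against 108 and 158 CPM. The 1 myeloid marker tested was called lower, that list's sum being 7.51 and 7.56 CPM against 9.21 and 12.1 CPM. Their part in the result was not tested. Among 23 genes of the amino acid response list 5 fell and none rose, including Stc2 (-1.87 ± 0.28), Cth (-1.13 ± 0.21), the translation inhibitor Eif4ebp1 (-0.60 ± 0.11) and Asns, the asparagine synthetase gene (-0.51 ± 0.13).

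For Batf and Stat3 knockouts the Slc38a2 values did not pass the threshold. Batf knockout libraries had 79.1 and 99.7 CPM and the control libraries of the same batches 118, 156 and 119 CPM (-0.60 ± 0.21, adjusted p = 0.165). The Stat3 knockout library had 85.3 CPM (-0.75 ± 0.30, 0.257). In the BALB/c Irf9 experiment Slc38a2 had 220 to 236 CPM in controls and 238 to 262 CPM in knockouts, which did not overlap, with a difference of 0.11 ± 0.07 (0.432).

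Prdm1 (Blimp-1) and Maf are factors of the IL-10 programme, and Slc38a2 was called in each of their comparisons, with Slc1a5, Slc7a14, Slc38a1 or Slc38a10 beside it. Of 23 members tested, 3 were called without Prdm1 (12.1% of all genes called), 2 without Maf (9.02%) and 4 without both (19%). As shares of the tested members these are 13%, 8.7% and 17.4%, near those of all genes. Slc1a5, the main glutamine carrier, had 186, 179 and 189 CPM in controls, 211, 197 and 310 CPM in Prdm1 knockouts, 199, 195 and 205 CPM in Maf knockouts and 265 and 266 CPM in double knockouts. Every knockout library lay above every control. It rose by 0.31 ± 0.09 without Prdm1 (adjusted p = 0.0333) and by 0.44 ± 0.10 without both (0.00453). Prdm1 knockout library 3 weighed on the first value, which was 0.11 without that library (0.177). That call was also lost without control library 1 (0.0799), 2 (0.118) or 3 (0.0512) and under DESeq2 (0.155). The double knockout call was kept in all 11 fits that left out a library.

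Slc7a14 had 15.99 to 16.4 CPM in the 3 controls, 10.2, 11.4 and 15.9 CPM in Prdm1 knockouts, 8.85, 10.7 and 11.3 CPM in Maf knockouts and 9.996 and 11.7 CPM in double knockouts. Every knockout library lay under every control. It fell by 0.65 ± 0.15 without Maf (adjusted p = 0.00953) and by 0.67 ± 0.17 without both (0.00691), and the value without Prdm1 was -0.44 ± 0.15 (0.055). The 2 calls were lost without Maf knockout library 1 (0.0542) and double knockout library 1 (0.106). Slc38a10, a little-studied member of the sodium-coupled family, had 139, 154 and 152 CPM in Prdm1 knockouts against 126, 121 and 125 CPM and rose by 0.19 ± 0.06 (0.027). It was lost without control library 2 (0.0915) or 3 (0.057) or Prdm1 knockout library 2 (0.126). Slc38a1 had 134 and 124 CPM in double knockouts against 137, 139 and 136 CPM in controls and fell by 0.18 ± 0.06 (0.0322). It was lost without control library 1 (0.0629) or 2 (0.0804) or double knockout library 1 (0.0523) or 2 (0.273). In the interaction of Prdm1 and Maf none of 23 members was called by edgeR or DESeq2, 2 had an unadjusted p under 0.05, and 1.1% of all genes were called. In the double knockout, 3 of 10 CD8 T and NK cell markers were called higher, their sum being 123 and 128 CPM against 74.0 to 82.6 CPM in controls. Of 10 B cell markers 3 were called higher in each of the Prdm1 and double knockouts, their sum being 22 to 28.2 CPM over those 5 libraries against 15.9 to 16.8 CPM. Of 3 myeloid markers tested 1 was called lower in the double knockout, the list's sum being 11.2 and 12.6 CPM against 13.2 to 14.9 CPM. The part of these markers in the results was not tested.

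Without Prdm1, 9 of the 25 tested genes of the amino acid response list rose and none fell, beside 12.1% of all genes called in either direction. Among the 9 were the stress gene Nupr1 (0.78 ± 0.18), Trib3 (0.48 ± 0.09), the proline synthesis gene Pycr1 (0.35 ± 0.11) and Sesn2 (0.27 ± 0.07), and the list's median was 0.17 beside 0.01 over all genes. Of the 20 synthetases 5 rose and none fell, with Vars and Yars both at 0.24. In the Maf knockout 1 gene of the response list and 1 synthetase rose, and in the double knockout 3 and 2. Myc rose by 0.22 ± 0.05 without Prdm1, 0.25 ± 0.05 without Maf and 0.22 ± 0.05 without both, and its antagonist Mxd1 fell by 0.61 ± 0.06, 0.25 ± 0.06 and 0.71 ± 0.06. Odc1, the first enzyme of polyamine synthesis, fell in all 3 comparisons, by 0.42 ± 0.08, 0.29 ± 0.08 and 0.49 ± 0.09. These comparisons share their controls.

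**Figure D4:**
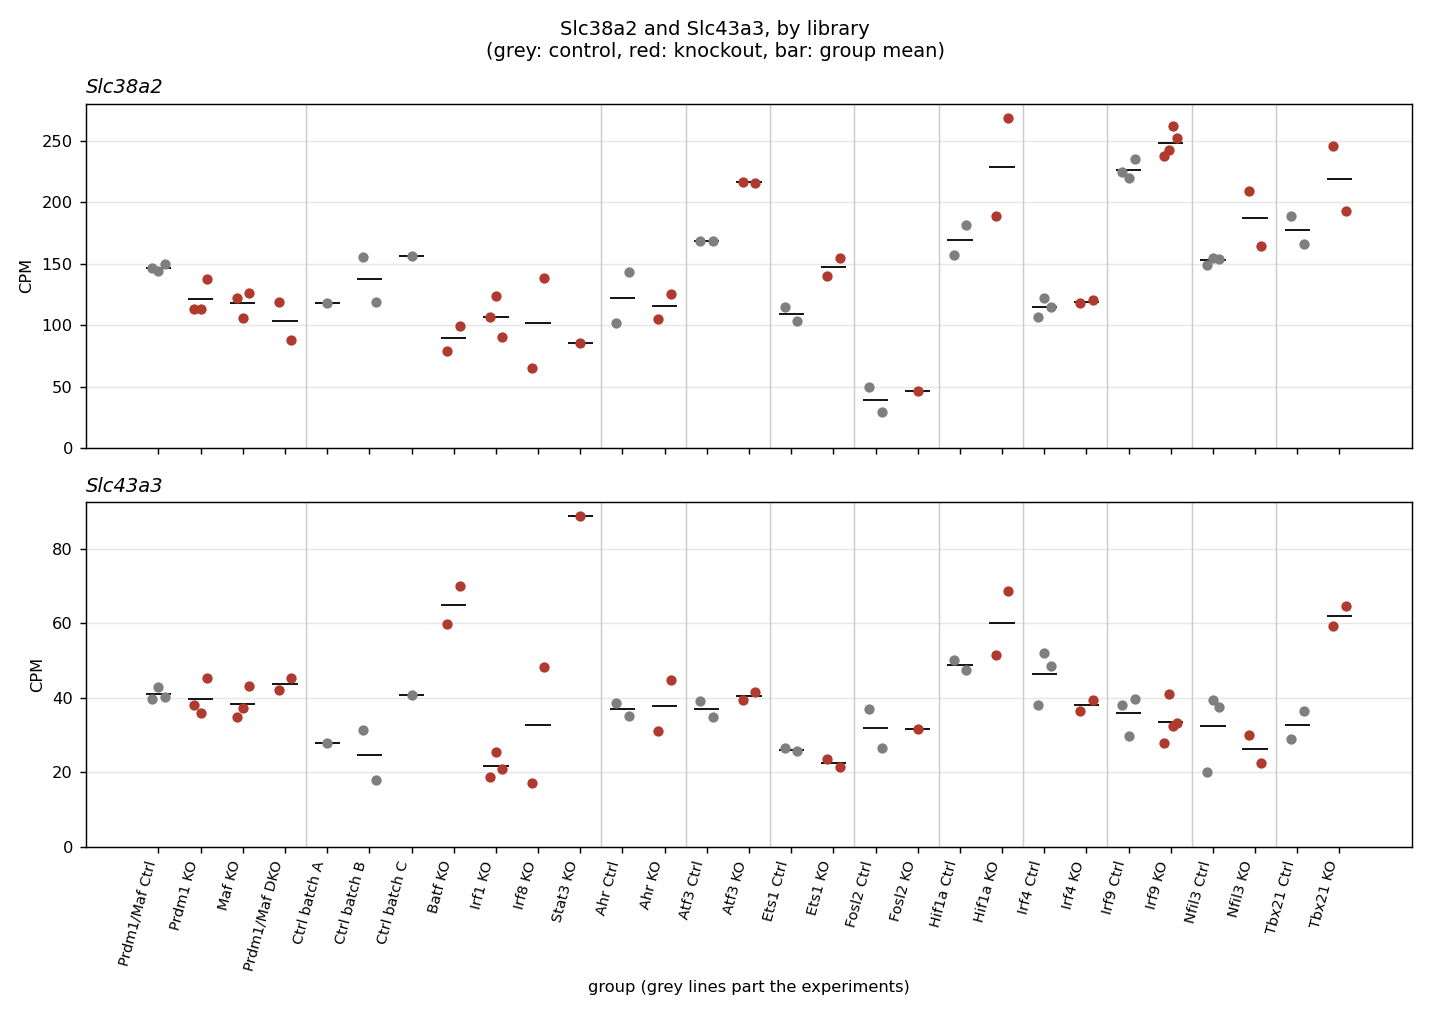
CPM of Slc38a2 (top) and Slc43a3 (bottom) in every library by group, with group means as bars. Slc38a2 lies under its controls in the Prdm1, Maf and double knockouts and above them in the Atf3 and Ets1 knockouts, and Slc43a3 lies above its controls in the Batf, Stat3 and Tbx21 knockouts.

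Batf and Stat3 are the AP-1 partner of Irf4 and the main signal transducer of IL-27, and in both knockouts Slc43a3 was higher. Slc43a3, which moves purine bases in human and rat cells and has no settled amino acid substrate, had 59.7 and 70.0 CPM in Batf and 88.9 CPM in the lone Stat3 knockout library. Controls of batches A and B, to which these libraries belong, had 27.7, 31.5 and 18.0 CPM, all lower. It rose by 1.25 ± 0.28 without Batf (adjusted p = 0.0194) and by 1.66 ± 0.37 without Stat3 (0.032), in a fit with batch as a term. Within batches, the Batf libraries lay 1.09 (batch A) and 1.48 (batch B) above their controls on the log2 scale, and the Stat3 library 1.82 (batch B). The Irf8 knockout library of batch B also lay above its controls, at 0.95, and that of batch A, rich in Rn45s, gave -0.67. The lone Stat3 library is assumed to vary like the other groups. Slc7a3 had 73.5 and 110 CPM without Batf against 30.8, 50.8 and 42.0 CPM and rose by 1.19 ± 0.27 (0.0208), with 1.24 in each batch. Those were 2 of 25 tested members for Batf, where 4.04% of all genes were called, and 1 of 25 for Stat3 (1.62%). Without 1 of the 2 Batf libraries the Batf calls were lost (0.242 and 0.323 for Slc43a3, 0.416 and 0.187 for Slc7a3). They were also lost without control library 1 of batch A (0.0614 and 0.0796), and Slc7a3 without control library 1 of batch B (0.066). The Stat3 call was lost in 7 of 11 fits that left out a library, with adjusted p of 0.052 to 0.0818 and log2 values of 1.39 to 1.78: without Batf knockout library 1 or 2, control library 1 of batch A, control library 1 or 2 of batch B, Irf1 knockout library 1 or control library 2 of batch C.

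In the Stat3 library several further carriers lay above both batch B controls without passing the threshold, among them Slc7a3, Slc7a1, Slc7a11 and Slc1a2. The last of these are given here for their larger fitted values. Slc7a11 had 149 CPM there against 80.3 and 31.7 CPM in the batch B controls (1.24 ± 0.44, adjusted p = 0.195). Slc1a2 (GLT-1), a glutamate carrier best known from glia, had 20.1 CPM against 2.42 and 0 CPM (3.80 ± 1.19, 0.138). Irf8 knockout library 2, also of batch B, lay above both controls in each of the named carriers as well. It had 64.5 CPM of Slc7a3, 189 of Slc7a1, 115 of Slc7a11 and 3.66 of Slc1a2. So did Batf knockout library 2, except in Slc7a11. Irf8 knockout library 1 (batch A, rich in Rn45s) lay under its control in Slc7a3, Slc7a1 and Slc7a11. Slc38a6 had 8.73 and 7.47 CPM in the Batf knockout against 0 to 1.36 CPM (3.48 ± 1.01, 0.0724). In the amino acid response list, 2 of 25 genes rose without Batf, Cth (1.40 ± 0.22) and Pck2 (0.78 ± 0.20), and none was called without Stat3. Of 4 CD8 T and NK cell markers tested 1 was called lower without Batf, the list's sum being 45.8 and 62.4 CPM against 22.6 to 44.3 CPM in the controls of batches A and B, and their part was not tested. Irf1 and Irf8 knockouts, fitted with the same controls, gave no call among 25 members, where 0.479% and 0.0452% of all genes were called, and 5 and 1 members had an unadjusted p under 0.05; DESeq2 gave 0 calls in both. In the Irf1 knockout Slc1a5 had 91.5, 101 and 86.6 CPM against 134 and 168 CPM (-0.57 ± 0.22, 0.518), and Myc fell by 1.04 ± 0.22 (0.0493).

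Tbx21 encodes T-bet, the Th1 factor, and in its knockout 2 of 25 tested members were called, both higher. That is 8% of them, near the 6.72% called among all genes. Slc43a3 had 59.2 and 64.7 CPM against 29.1 and 36.4 CPM and rose by 0.81 ± 0.17 (adjusted p = 0.0313). Slc38a4 (SNAT4), a carrier best known from liver, had 6.43 and 12.6 CPM against 0.211 and 1.23 CPM and rose by 3.55 ± 0.67 (0.0221), with a 95% interval of 2.03 to 5.08. Across the 59 libraries of other experiments Slc38a4 reached at most 1.92 CPM. Both calls were lost without control library 1 (0.214 and 0.0691). Slc1a5 had 177 and 167 CPM against 117 and 116 CPM, which did not overlap (0.45 ± 0.14, 0.0977). The methionine enzyme Mat2a rose by 1.44 ± 0.26, the polyamine genes Amd1 and Srm by 0.95 ± 0.21 and 0.92 ± 0.18, and the histidine and peptide carrier Slc15a3 by 1.98 ± 0.36. No gene of the amino acid response list and no synthetase was called. Of the CD8 T and NK cell markers 2 were called lower, their sum being 25.1 and 27.8 CPM against 36.5 and 37.1 CPM, and their part was not tested.

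Irf4, which binds DNA with BATF in activated T cells, gave the most member calls. Of 22 members tested 5 rose and 2 fell, 31.8%, beside 28% of all 10477 genes tested. Slc7a1 (CAT-1), the main arginine carrier, had 264 and 245 CPM in the knockout against 184, 178 and 154 CPM and rose by 0.66 ± 0.09 (adjusted p = 4.69e-06). It was kept in all 11 alternatives, with log2 values of 0.57 to 0.71. Slc1a4 had 40.9 and 37.0 CPM against 26.9, 24.6 and 24.8 CPM and rose by 0.69 ± 0.16 (0.00148). It was lost without knockout library 1 (0.0623). Slc1a2 had 31.0 and 21.4 CPM against 0.747, 3.79 and 0 CPM and rose by 5.08 ± 0.48 (1.26e-08), with a 95% interval of 4.08 to 6.07. Its log2 value ran from 3.72 to 6.94 over alternatives, and DESeq2 gave 4.34 with an adjusted p of 0.0708. Outside this experiment Slc1a2 reached at most 20.1 CPM, in the Stat3 knockout library. These 3 carriers separated the groups completely, but the share of all genes that do so was not counted.

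The other 4 members called without Irf4 were Slc38a9, Slc43a2, Slc7a4 and Slc1a5. Slc38a9, the lysosomal arginine sensor, had 20.1 and 16.7 CPM against 13.4, 14.2 and 10.4 CPM and rose by 0.71 ± 0.23 (adjusted p = 0.0202). Slc43a2, a leucine and phenylalanine carrier, had 42.4 and 45.3 CPM against 53.1, 54.0 and 65.1 CPM and fell by 0.39 ± 0.13 (0.0332). Slc7a4 had 1.27 and 1.07 CPM against 5.97, 3.79 and 5.78 CPM and fell by 2.10 ± 0.53 (0.00402). In GENCODE vM21 it shares 554 exonic bases with P2rx6 on the opposite strand, so reads of both may mix. Slc1a5 had 209 and 220 CPM against 197, 209 and 162 CPM, which overlap, and rose by 0.28 ± 0.10 (0.0311). All 4 were lost under DESeq2 (0.0569 to 0.282) and without knockout library 1 (0.0713 to 0.259). Slc1a5 and Slc43a2 were also lost without knockout library 2 (0.229 and 0.125), as was Slc7a4 (0.0548), and Slc1a5, Slc38a9 and Slc43a2 without control library 3 (0.169, 0.178 and 0.34). The heterodimer itself did not pass: Slc7a5 gave -0.03 ± 0.08 and Slc3a2 0.01 ± 0.08, with 95% intervals of -0.20 to 0.14 and -0.16 to 0.19.

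**Figure D5:**
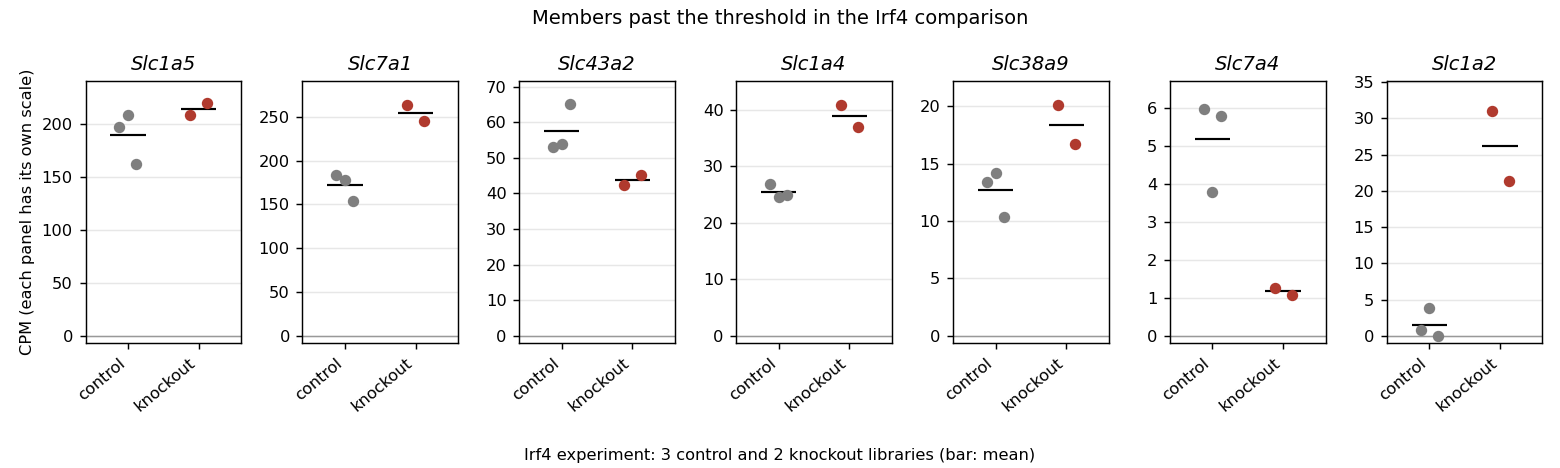
CPM of the 7 members called in the Irf4 comparison, in 3 control (grey) and 2 knockout (red) libraries with means as bars. Slc7a1, Slc1a4 and Slc1a2 lie above all controls in the knockout, Slc43a2 and Slc7a4 lie under them, and Slc1a5 overlaps.

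Without Irf4, 9 of 24 tested genes of the amino acid response list rose and 4 fell, beside 28% of all genes called. Rises included the pseudokinase gene Trib3 (1.17 ± 0.13), the phosphatase subunit gene Ppp1r15a (1.07 ± 0.15) and Atf5 (1.05 ± 0.15). Of 20 synthetases 3 rose, Rars, Wars and Nars, and 2 fell, a share under that of all genes. Myc rose by 0.94 ± 0.10 and its antagonist Mxd1 by 0.87 ± 0.10, and the Rag GTPase gene Rraga (0.80 ± 0.15) and Sesn2 (0.72 ± 0.14), both of the mTORC1 sensing branch, rose. Among 17 carriers of other families 2 rose, led by Slc15a3 (2.44 ± 0.17), and 4 fell, led by the aromatic amino acid carrier Slc16a10 (-1.53 ± 0.22). The sum of the 10 CD8 T and NK cell markers was 60.4 and 64.1 CPM against 18.1 to 27.8 CPM in controls, with 1 marker called higher. Of 2 myeloid markers tested both were called lower, the list's sum being 8.39 and 9.96 CPM against 21.7 to 23.2 CPM. The part of these markers in the result was not tested. Control libraries 1 and 2 differed little more than sampling noise (chi-square per degree of freedom 1.09), and with these summed all 7 calls were kept.

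The Hif1a, Irf9, Fosl2 and Nfil3 comparisons gave no member call. Tested members numbered 20, 17, 25 and 18, members with an unadjusted p under 0.05 numbered 2, 5, 3 and 0, and DESeq2 called 0 in each. All genes called were 5.55%, 4.93%, 0.632% and 0.0207%. In the Hif1a knockout Slc43a2 had 13.9 and 32.7 CPM against 41.0 and 47.0 CPM (-1.07 ± 0.31, adjusted p = 0.0636), and the response list lost 4 of 23 genes, including Vldlr (-4.31 ± 0.40), Stc2 (-3.91 ± 0.52) and Ddit4 (-1.42 ± 0.18), with none higher. Of 10 B cell markers 7 were called higher there, their sum being 113 and 175 CPM against 15.6 and 17.2 CPM, and their part was not tested. In the Irf9 knockout Slc38a6 had 22.7, 24.3, 16.1 and 29.0 CPM against 10.1, 16.02 and 15.4 CPM (0.66 ± 0.24, 0.116), and Slc36a4 gave -0.82 ± 0.28 (0.0874). The response list had 3 of 17 genes lower there, the serine and proline synthesis genes Psat1, Shmt2 and Aldh18a1 at -0.25 to -0.34. The Fosl2 comparison set 1 knockout library against 2 controls, with the knockout assumed to vary like the controls, so its 0 calls say little. Leaving out each Hif1a library in turn gave 1 to 3 calls, and leaving out each Irf9 library 0 to 1. Without the Nfil3 knockout library that kept most of its Nfil3 transcript, no member was called either.

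Across the 16 comparisons the fitted values of the 9 highest members had unequal ranges. Fitted log2 values of Slc7a5 ran from -0.67 (Ahr) to 0.21 (Maf), of Slc3a2 from -0.46 (Ets1) to 0.65 (Irf1), of Slc1a5 from -0.57 (Irf1) to 0.62 (Batf) and of Slc38a1 from -0.27 (Irf1) to 0.50 (Batf). Slc7a1 ran from -0.19 (Irf1) to 0.69 (Batf), and Slc7a6 ran from -0.22 to 0.41 and was called in none. Slc38a2 ran from -0.75 (Stat3) to 0.46 (Ets1), Slc38a10 from -1.03 (Stat3) to 0.19 (Prdm1) and Slc43a3 from -0.47 (Irf1) to 1.66 (Stat3). Many of these extremes came from the Irf1, Batf and Stat3 comparisons, which share 1 fit, and of those only Slc43a3 without Stat3 was called. Standard errors of Slc38a2 and Slc1a5 given above are larger in that fit than in the Prdm1/Maf fit, so the ranges partly reflect precision. Among lower members, wide ranges were seen for Slc38a3 (-5.47 to 1.39) and Slc38a6 (-1.75 to 3.48), neither of which was called. Slc7a11, whose promoter window carries both TGATGNAA cores shown above, ran from -0.80 (Irf1) to 1.24 (Stat3) without a call, and Slc1a4, with 1 core, was called only without Irf4.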

How the data were processed

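RNA was measured in 69 libraries, 63 of them used here; the 4 Cebpb libraries, replicate 3 of the double knockout and Fosl2_KO 1 (6 libraries, 9059 to 3888555 counts) were left out by the rule that chose the members. Reads were aligned with TopHat to mm9 and quantified with RSEM, per the submitters' processing notes, which name no versions in the sources at hand. The authors deposited expected counts per gene, not scaled for depth, and TPM, scaled for length and library total. Of nonzero expected counts, 23.0% lay more than 0.001 from a whole number; all were rounded for testing.

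Members and gene lists were chosen with earlier results of these data known, and GCGTG was added to the motifs after the member results. Tests used edgeR 4.0.16 in R 4.3.3 (filterByExpr, TMM, glmQLFit, glmQLFTest; Benjamini-Hochberg over all genes, 0.05) and were checked on simulated counts. CPM are counts scaled to a common total from the library's total expected counts. The Prdm1/Maf experiment was 1 fit of 11 libraries; Batf, Irf1, Irf8 and Stat3 were 1 fit of 12 with batch as a term (batch C by exclusion); every other experiment was fitted alone. Within-batch ratios used a pseudocount of 0.5 CPM. Called members are all named; list members are the largest called changes at 5 CPM or more. DESeq2 1.42.0 and the other alternatives are given with their effect in the closing section. Floors of 3 counts cover counting error only. Promoters and overlaps come from RefSeq (GRCm38.p6) and GENCODE vM21, not from the authors' build, whose coordinates were not used.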

Additional observations from a re-analysis of the deposited data

How the results depend on the processing

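Of the 28 member calls, 1 (Slc7a1 in Irf4) was kept under every alternative run, and 261 of 362 alternative values stayed past the threshold in the same direction. Calls kept were 27 of 28 with DESeq2 size factors, 27 of 28 with no filter on low counts and 18 of 28 with DESeq2's own test. In 1 fit over the 63 libraries 12 of 28 were kept. With Rn45s removed 3 of 3 were kept, and with near-identical pairs summed, an alternative chosen after seeing the data, 7 of 7.

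Replicate 3 of the double knockout had only 9059 counts and 178 genes detected. With it kept, members called went from 4 to 1 (double knockout), from 2 to 0 (Maf) and from 3 to 0 (Prdm1). Of the 9 main calls in these comparisons 0 were kept, so the 1 double knockout call was of a member not called before. Slc1a5 in the double knockout reversed to -0.13 (adjusted p = 0.972). In 1 fit over the 63 libraries the counts were 1 (double knockout), 0 (Maf), 0 (Prdm1), 11 (Batf, from 2), 5 (Irf1, from 0), 1 (Irf8, from 0), 6 (Stat3, from 1), 1 (Ahr, from 2), 0 (Atf3, from 1), 2 (Ets1, from 4), 1 (Hif1a, from 0), 4 (Irf4, from 7) and 4 (Tbx21, from 2). With no filter they were 5 (Prdm1), 2 (Stat3) and 1 (Hif1a). DESeq2's test gave 1 (Ahr), 0 (Atf3), 2 (Ets1) and 2 (Irf4), its size factors 1 (Ahr), and no batch term 1 (Batf). Members detected in controls numbered 15 at 5 TPM and 25 at 0.5 TPM, against 23 at 1 TPM. The cause of these changes was not tested.

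Leaving out each library in turn gave 2 to 5 calls (double knockout), 0 to 2 (Maf), 1 to 4 (Prdm1), 0 to 3 (Batf), 0 to 1 (Stat3), 0 to 2 (Ahr), 0 to 1 (Atf3), 2 to 4 (Ets1), 1 to 3 (Hif1a), 2 to 7 (Irf4), 0 to 1 (Irf9) and 0 to 4 (Tbx21), and 0 in the interaction, Irf1, Irf8 and Nfil3. It was not run for Fosl2, which leaves no residual degrees of freedom.

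Whether replicate numbers pair the samples was not settled for every experiment. Same-number libraries had correlated deviations of 0.297 in Hif1a, 0.18 in Tbx21, -0.35 to -0.261 in Nfil3 and -0.0807 to 0.0834 elsewhere. With 2 libraries in each group, deviations from the group mean mirror each other. Hif1a and Tbx21 thus give 1 value each, different-number pairs being -0.297 and -0.18, which cannot decide the question. In the Prdm1/Maf experiment same-number values (-0.0711 to 0.0834) lay within the range of different-number values (-0.0831 to 0.0894), so no pairing was seen there. With the replicate block the counts were 5 (double knockout), 2 (Maf), 4 (Prdm1), 2 (Ahr), 1 (Atf3), 4 (Ets1), 2 (Hif1a), 3 (Irf4), 0 (Irf9), 0 (Nfil3) and 3 (Tbx21), and 21 of 24 calls were kept. Outside the Prdm1/Maf experiment the block fit used only replicate numbers shared by both groups. Irf4 control 3, Irf9 knockout 4 and Nfil3 control 3 were thus left out of it. Slc1a5, Slc38a9 and Slc43a2 in Irf4 were also lost in the fit that left out control library 3 alone. Blocking and the missing library are thus not separated there. No paired analysis was possible for Fosl2 because its knockout library in use shares 1 number with its controls. For Batf, Irf1, Irf8 and Stat3 the labels tie libraries by batch rather than by number, and batch is a term of their fit.

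Depth limits members near 3 counts, which stood for up to 4.04 CPM in the shallowest library. Ahr, Atf3, Ets1, Hif1a and Tbx21 rest on 2 against 2 libraries, and Stat3 and Fosl2 on 1 knockout library.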
